A study of Mus musculus with 17 samples.

Results

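The row of Ctla4, 1 of the 47643 gene rows in the table, was followed through 17 RNA libraries of regulatory T cells (Tregs) sorted from spleens of the NOD strain, in which autoimmune diabetes arises without treatment. The row was taken by its gene identifier, ENSMUSG00000026011, and was chosen by its measured levels in these genotypes, that is, with its CPM and fold changes already known. Its levels and fold changes are therefore given as a description, with no test. All cells were sorted on GFP expressed with Foxp3, the transcription factor that defines Tregs, so every mouse carried that reporter. There were 6 libraries of Nfkbid transgenic mice (NOD-60A Tg+), 5 of Nfkbid knockout mice (NOD- Nfkbid-KO) and 6 of NOD controls, and 1 batch label covered them all. The library numbers in the file headers nevertheless form 4 separate runs: the first holds all 6 transgenic libraries and control replicates 1 and 2, another all 5 knockout libraries, and the others control replicates 3 to 5 and control replicate 6. What these numbers record is not stated, and the knockout genotype cannot be told apart from its run. Per the labels' protocols transgenic libraries were not pooled and 2 samples went into each library of the other genotypes, although the names of 2 control libraries could also be read as more samples, so genotype and pooling cannot be told apart in comparisons with the transgenic group. Ages, sexes and the promoter of the transgene are not given in the sources used here. Nfkbid encodes an atypical nuclear IκB protein that modulates transcription by NF-κB dimers.

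CTLA-4 is an inhibitory receptor that Tregs express constitutively. It binds CD80 and CD86 on antigen-presenting cells with higher affinity than the costimulatory receptor CD28 does, and it can strip those ligands from the presenting cell. Most CTLA-4 lies inside the cell, because the clathrin adaptor AP-2 binds a tyrosine motif in its cytoplasmic tail and draws it off the surface, while LRBA protects the internalised protein from lysosomal breakdown. Loss of Ctla4 from mouse Tregs leads to autoimmunity.

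Library totals ran from 3133388 to 4726615 counts. Levels are given as CPM, counts scaled to a common library size with TMM factors, and 3 counts corresponded to 0.623 to 1.04 CPM. For many rows the counts did not look like those of the named gene. The B2m row had 0 counts in every library, the Actb row 0 to 7 and the Eef1a1 row 0 to 2, although nearly all cells transcribe these genes. The Nfkbid row averaged 8.79 ± 1.51 CPM in transgenic, 4.75 ± 2.41 CPM in knockout and 4.57 ± 0.915 CPM in control libraries (SD, n = 6, 5 and 6), so it did not separate knockout from control. Its exons, moved by the distance that fitted the rows around it best, overlapped Nfkbid exons by 0 bases, and the row was not a check of the genotype. The Foxp3 row averaged 318 ± 22.0 CPM in transgenic, 313 ± 40.9 CPM in knockout and 346 ± 15.5 CPM in control libraries. The 11 rows of T cell markers summed to 908 to 1329 CPM in transgenic, 876 to 1422 CPM in knockout and 830 to 934 CPM in control libraries. Most of each sum came from the Cd3d row, with 588 to 1034 CPM over all libraries. The Cd3e, Trac, Trbc1, Trbc2 and Cd2 rows reached at most 3.09, 7.98, 4.58, 2.02 and 1.35 CPM in any library, although T cells transcribe these genes. Knockout replicates 2, 3 and 5 had 13466 to 13793 rows above 0, the fewest of the 17 libraries, and results are also given without them.

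The Ctla4 gene lies on the plus strand of chromosome 1 at chr1:60887000-60915832 (GRCm38), with 2330 exon bases in the annotation used here. Its usual transcript has 4 exons and encodes 223 residues. Of the 28 rows within 500 kb, 23 had a mean count under 5. The Ctla4 row had a mean of 270.6 counts. Higher than it stood the row of Gm38137, a transcript to be experimentally verified of 1401 bases at chr1:60880338-60881738 on the same strand, with a mean of 3201 counts. The row of Cd28, the neighbouring costimulatory receptor gene, had a mean of 36.9 counts, and that of Icos, another costimulatory receptor that activated T cells and Tregs carry, 1.6 counts. The Abi2 and Raph1 rows, for 2 actin-regulating proteins, had means of 23.8 and 22.6 counts.

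Counts were then set against the overlap of each row's exons with annotated coding exons after all rows were moved along the chromosome by a common distance of up to 100 kb either way. Over the 222 rows within 5 Mb of Ctla4, Spearman's rho across rows was 0.679 at a move of 28 kb towards higher coordinates, against 0.517 unmoved. Within 2 Mb the highest value, 0.693 over 94 rows, came at 19 kb, and within 10 Mb 0.633 over 382 rows came at 25 kb. Rows are not independent, and these values describe the fit only. At 28 kb the Ctla4 row overlapped exons of Ctla4 by 207 bases, where the first exon of its long transcript fell on the last exon of the gene. At the same distance the Gm38137 row overlapped Ctla4 by 255 bases, the whole of exon 1. Both rows overlapped Ctla4 by at least 67 bases, the length of a read, at 5.4 to 6.8 kb and at 27.5 to 28.7 kb. The Gm38137 row alone did so at 30.8 to 35.4 kb, by up to 1220 bases of the last exon, and at 12.1 to 13.4 kb. The Ctla4 row alone did so at 0 to 1.1 kb and 1.4 to 3.6 kb, at 18.7 to 18.9 kb by up to 135 bases, at 20.9 to 22.2 kb by up to 288, at 25.3 to 25.7 kb by up to 207, and over 4 shorter stretches. At exactly 19 kb and 25 kb neither row reached that overlap. Which transcript the reads of either row came from was not established, so the text speaks of the Ctla4 row and the Gm38137 row.

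**Figure D1:**
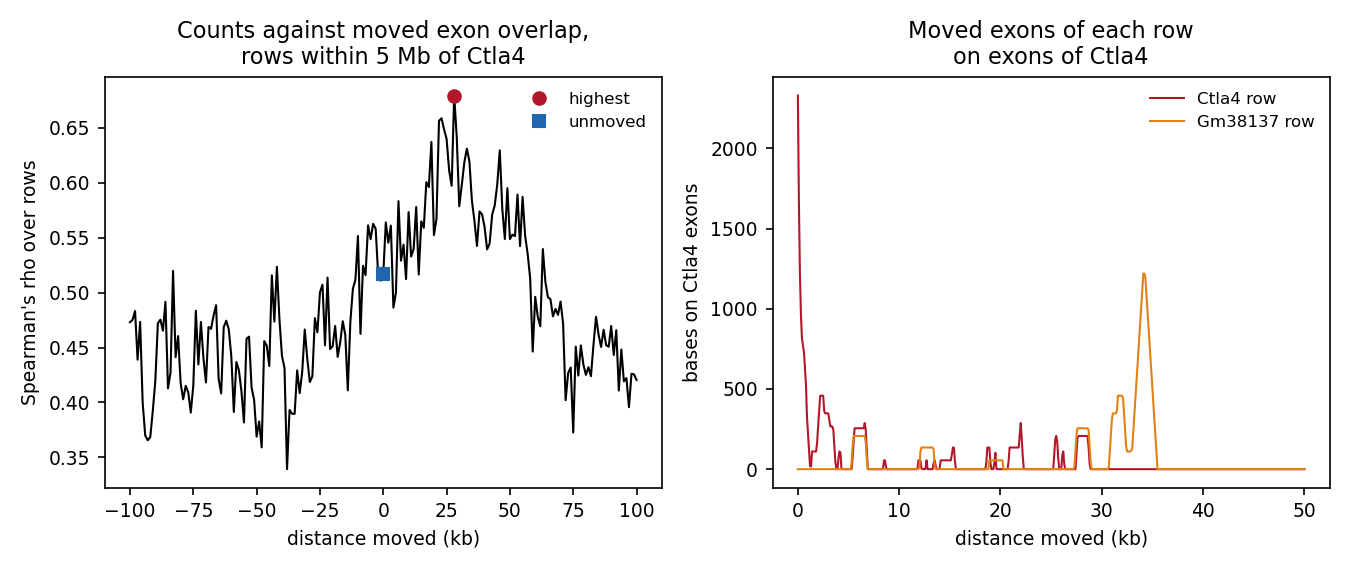
Left, Spearman's rho between mean counts and moved coding-exon overlap for the 222 rows within 5 Mb of Ctla4, against the distance moved in kb; the highest value is 0.679 at 28 kb and the unmoved value 0.517. Right, bases of the Ctla4 row and the Gm38137 row that lie on Ctla4 exons against the distance moved; both rows touch the gene at 27.5 to 28.7 kb.

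The stretches of Ctla4 that the moved Gm38137 row covers are shown because its counts turn on whether it reads this gene. The coding part of exon 1 (chr1:60909171-60909279, plus strand, GRCm38) lies under that row at 28 kb and holds the start codon, in capitals. The coding part of the last exon (chr1:60914613-60914714, plus strand, GRCm38) lies under it at 34 kb, where 1126 bases of the last exon are covered. It encodes most of the cytoplasmic tail, and the capitals mark the codons of the YVKM motif that AP-2 and phosphoinositide 3-kinase bind.
Ctla4 exon 1, coding: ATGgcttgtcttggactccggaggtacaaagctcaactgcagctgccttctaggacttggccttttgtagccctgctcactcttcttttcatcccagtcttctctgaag
Ctla4 last exon, coding: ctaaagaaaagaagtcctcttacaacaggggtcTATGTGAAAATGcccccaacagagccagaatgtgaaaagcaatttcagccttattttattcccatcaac

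The Ctla4 row was highest on average in transgenic, intermediate in control and lowest in knockout libraries, and the 3 groups overlapped. The row had 169, 109, 95.2, 73.9, 76.7 and 93.9 CPM in transgenic replicates 1 to 6. It had 52.8, 70.0, 52.2, 42.8 and 88.1 CPM in knockout replicates 1 to 5. Control replicates 1 to 6 had 62.5, 63.5, 69.5, 83.4, 94.5 and 62.6 CPM. Transgenic replicate 1 stood above all other libraries, knockout replicate 4 below all others, and knockout replicate 5 within the range of the other transgenic libraries. The counts behind these values ran from 153 to 489 per library, which gives a counting error of 4.5 to 8.1%.

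The mean level was 103 ± 34.8 CPM in transgenic libraries (SD, n = 6), 61.2 ± 18.0 CPM in knockout libraries (SD, n = 5) and 72.7 ± 13.4 CPM in control libraries (SD, n = 6). The medians were 94.5 CPM in transgenic, 52.8 CPM in knockout and 66.5 CPM in control libraries, in the same order as the means. Without replicate 1 the transgenic mean was 89.8 ± 14.6 CPM (SD, n = 5), with libraries from 73.9 to 109 CPM. The coefficient of variation was 33.8% in transgenic, 29.4% in knockout and 18.4% in control libraries. In the order transgenic, control, knockout, neither pair of neighbours was separated: the transgenic and control ranges overlapped, and so did the control and knockout ranges. In whole-population libraries such as these, fewer cells with the transcript and less transcript per cell cannot be told apart.

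On the log2 scale the fitted difference of the Ctla4 row was 0.50 (SE 0.19) in transgenic against control, a fold of 1.42. In knockout against control it was -0.25 (SE 0.21), a fold of 0.84. In transgenic against knockout it was 0.75 (SE 0.21), a fold of 1.69. The comparisons with control share the same 6 control libraries. Leaving out 1 library at a time gave 0.31 to 0.59 for transgenic against control, -0.42 to -0.15 for knockout against control and 0.56 to 0.92 for transgenic against knockout. Without knockout replicates 2, 3 and 5 the difference of knockout from control was -0.60 and that of transgenic from knockout 1.11. Within the run of header numbers that holds both genotypes, the 6 transgenic libraries had 73.9 to 169 CPM and control replicates 1 and 2 had 62.5 and 63.5 CPM, a fitted log2 difference of 0.71.

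The Gm38137 row, singled out after its values were seen, is described in the same way and with no test. It had 1163, 1336, 1233, 1251, 978 and 1197 CPM in transgenic replicates 1 to 6, and 647, 588, 569, 521 and 638 CPM in knockout replicates 1 to 5. Control replicates 1 to 6 had 814, 936, 969, 1142, 1142 and 724 CPM. Every knockout library lay below every transgenic and every control library, while the transgenic and control libraries overlapped. The means were 1193 ± 121 CPM in transgenic, 592 ± 51.7 CPM in knockout and 955 ± 170 CPM in control libraries (SD, n = 6, 5 and 6). The fitted log2 difference was 0.32 (SE 0.11) for transgenic against control, -0.69 (SE 0.12) for knockout against control and 1.01 (SE 0.12) for transgenic against knockout. Its group means therefore had the same order as those of the Ctla4 row, at a higher level and with coefficients of variation of 10.1, 8.73 and 17.8% in transgenic, knockout and control libraries.

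**Figure D2:**
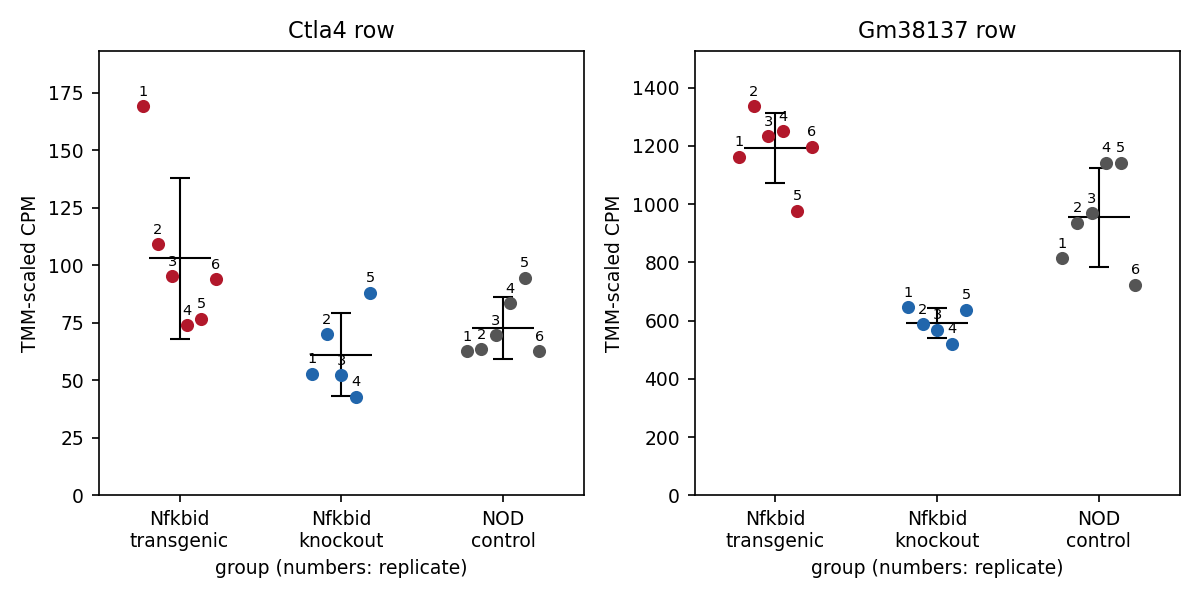
TMM-scaled CPM of the Ctla4 row (left) and the Gm38137 row (right) in each library, numbered by replicate, with the mean (long bar) and SD (error bar) of each group. The Ctla4 row overlaps among all 3 groups and its highest library is transgenic replicate 1 at 169 CPM; in the Gm38137 row the 5 knockout libraries, at 521 to 647 CPM, lie below the other 12.

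The 2 rows did not follow each other in every library. The Gm38137 row had 6.88 to 16.9 counts for each count of the Ctla4 row. The lowest ratios were 6.88 in transgenic replicate 1, 7.25 in knockout replicate 5 and 8.4 in knockout replicate 2. These were also the 3 libraries with the lowest TMM factors, 0.864, 0.859 and 0.864, and with mitochondrial shares of 24.8, 28.2 and 25.6% of counts, against 19.7 to 25.3% in the other libraries. Transgenic replicate 1 was the highest library of its group for the Ctla4 row, and knockout replicates 5 and 2 were the highest of theirs. With library totals as the only scaling these libraries had 146, 75.7 and 60.5 CPM, still the highest of their groups. The part of library composition in these values was not tested. Over the 17 libraries the log2 levels of the 2 rows had a Pearson r of 0.721 and a Spearman's rho of 0.77, given as a description since libraries of a group share a genotype. With each group's mean removed r was 0.487, and without transgenic replicate 1 it was 0.776.

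Genes tied to CTLA-4, and other receptor and Treg genes, were taken from 9 lists of 107 genes besides Ctla4 itself. The lists of other inhibitory and costimulatory receptors, suppressive molecules and Treg identity are not specific to CTLA-4. Of the 107 genes, 66 had rows that passed the filter on low counts. In transgenic against control, 4 of the 66 were higher and 8 lower at an adjusted p under 0.05 by edgeR's quasi-likelihood test over all rows. That is 18.2% of the tested members, against 7.4% of all 9986 rows tested, of which 5.23% were higher and 2.17% lower, and the members' median log2 difference was -0.06, against -0.01 over all rows. The lists were chosen with earlier results of these data known. That choice can raise the members' share, so here and below the shares are given as a description only. In knockout against control, 1 member was higher and 3 lower, 6.06% against 1.89% of all rows (0.881% higher and 1.01% lower), with a median of -0.11 against -0.02. In transgenic against knockout, 6 were higher and 5 lower, 16.7% against 10.7% of all rows (6.34% higher and 4.33% lower), with a median of -0.05 against 0.00. The count for knockout against control was 7 without knockout replicate 4, which is 10.4% of the members tested against 11.1% of all rows. It was 2 without any 1 of knockout replicate 5, transgenic replicates 2 to 6 or control replicates 1 to 5, 2.86 to 3.03% of members against 0.863 to 1.73% of all rows. The count for transgenic against knockout was 19 without knockout replicate 1, 27.9% against 14.0% of all rows. Without knockout replicates 2, 3 and 5 the count for transgenic against control was 17 (23.9% against 12.4% of all rows), that for knockout against control 3 (4.23% against 0.397%) and that for transgenic against knockout 11 (15.5% against 7.34%). With transgenic libraries and control replicates 1 and 2 only, which share a run of header numbers, 3 members were called for transgenic against control, 4.41% against 2.5% of all rows. These were Cd244a, Izumo1r and Slamf1, and the other members called in the fit of all libraries kept their direction there. Members whose moved exons lay on their own gene, 41 of those tested, gave 7, 1 and 8 calls in the 3 comparisons. These were 17.1%, 2.44% and 19.5% of them, against 7.4%, 1.89% and 10.7% of all rows. A member was counted so if at least 67 bases overlapped at the distance that fitted the rows within 5 Mb best. Other windows were not tried for members, and for the Ctla4 row the best distance changed with the window. The names below are those of the rows.

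Among the ligands and costimulatory receptors closest to CTLA-4, no row was called. The Cd80 row averaged 6.01 ± 1.12 CPM in transgenic, 7.94 ± 1.49 CPM in knockout and 8.07 ± 1.04 CPM in control libraries. Its log2 difference was -0.42 (SE 0.21) in transgenic against control. The row of Cd86, the other ligand, had 0 to 6 counts per library and was not tested, nor was that of Icos, with 0 to 5. The moved exons of the Cd86 row lay on Cd86 by 9 bases and those of the Icos row on Icos by 0. The Cd28 row averaged 9.31 ± 2.02 CPM in transgenic, 9.94 ± 5.02 CPM in knockout and 12.7 ± 5.08 CPM in control libraries, with overlapping ranges. At 28 kb it lay on Cd28 exons by only 19 bases, so it gives little information on Cd28 itself.

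In the trafficking list, 10 of 18 members were tested and 1 was called, in transgenic against knockout. That is 10% of those tested, against 10.7% of all rows. The row of Lrba, which keeps CTLA-4 from lysosomes, averaged 35.5 ± 4.44 CPM in transgenic, 20.9 ± 5.82 CPM in knockout and 25.6 ± 5.09 CPM in control libraries. The lowest transgenic library, at 31.8 CPM, stood above the highest knockout library, at 27.8 CPM. Lrba was higher in transgenic than knockout libraries by 0.77 (SE 0.18, edgeR adjusted p = 0.008), and this call held under all 27 alternatives. Its differences from control were 0.47 (SE 0.17, adjusted p = 0.106) for transgenic and -0.30 (SE 0.18, adjusted p = 0.330) for knockout by the same edgeR test. The other 9 tested members of the list, among them rows of AP-2 subunits, clathrin and dynamin, were not called in any comparison.

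Of the 15 signalling partners of CTLA-4 and CD28, 14 were tested, and those called were all lower in transgenic libraries. The row of Prkcq, the protein kinase C isoform that acts below CD28, averaged 43.5 ± 5.61 CPM in transgenic, 65.0 ± 7.60 CPM in knockout and 60.4 ± 7.64 CPM in control libraries. Every transgenic library, at most 49.4 CPM, lay below every knockout and control library, at least 50.3 CPM. Prkcq fell by 0.47 (SE 0.12, edgeR adjusted p = 0.015) in transgenic against control and by 0.58 (SE 0.12, adjusted p = 0.003) against knockout. The call against control was lost in 3 of 28 alternatives: with no filter, with replicate number as a block (log2 difference -0.47), and within the shared run of header numbers, where the difference was -0.25. The row of Pik3r1, the regulatory subunit of phosphoinositide 3-kinase, was lower in transgenic than knockout libraries, with 5.34 ± 1.54 CPM against 10.5 ± 5.26 CPM, but 17 of 27 alternatives did not call it.

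Of the 19 transcription factors that act on the Ctla4 gene or pair with those that do, 17 were tested. The Foxp3 row was not called in any comparison. The row of Irf4, which drives effector differentiation of Tregs, averaged 35.2 ± 4.63 CPM in transgenic, 22.2 ± 4.60 CPM in knockout and 25.2 ± 5.44 CPM in control libraries. Irf4 was higher in transgenic than knockout libraries by 0.66 (SE 0.17, edgeR adjusted p = 0.015), a call lost only without knockout replicates 2, 3 and 5 among the 27 alternatives. The row of Satb1, a chromatin organiser, averaged 164 ± 14.1 CPM in transgenic, 196 ± 29.2 CPM in knockout and 232 ± 13.4 CPM in control libraries. The highest transgenic library, at 185 CPM, stood below the lowest control library, at 209 CPM. Satb1 fell by 0.50 (SE 0.10, edgeR adjusted p = 0.002) in transgenic against control. The row of Ikzf2, which encodes Helios, averaged 213 ± 26.5 CPM in transgenic, 220 ± 55.4 CPM in knockout and 153 ± 11.9 CPM in control libraries. Its call for transgenic against control (log2 difference 0.48, edgeR adjusted p = 0.021) was lost in 4 of 28 alternatives, among them those without control replicate 2 or 3. Its call for knockout against control (0.53, adjusted p = 0.041) was lost in 18. No moved exon base of that row lay on Ikzf2.

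The list of suppressive molecules had 5 of 14 members tested. In transgenic against knockout 3 were called, all higher, 60.0% of those tested against 10.7% of all rows. These 3 rows had the same order of group means as the Ctla4 row, with knockout and control close to each other in Nt5e. Being called already set transgenic above knockout in them, so only the place of control was free. The row of Entpd1, the CD39 ectoenzyme that degrades extracellular ATP, had 10.7 to 16.7 CPM in transgenic, 0.804 to 3.60 CPM in knockout and 4.60 to 8.52 CPM in control libraries. None of the 3 groups overlapped, but the knockout values rest on 3 to 11 counts per library. The lowest, 0.804 CPM, was at the level of 3 counts. Entpd1 rose by 1.10 (SE 0.25, edgeR adjusted p = 0.008) in transgenic against control, and fell by 1.55 (SE 0.31, adjusted p = 0.010) in knockout against control. Knockout against control missed the threshold for Entpd1 when only those groups were fitted and with replicate number as a block, and transgenic against control missed it within the shared run of header numbers, at 0.89. The row of Nt5e, the CD73 ectoenzyme that makes adenosine from the product of CD39, averaged 655 ± 66.8 CPM in transgenic, 457 ± 49.4 CPM in knockout and 462 ± 24.3 CPM in control libraries. Nt5e was higher in transgenic libraries by 0.50 (SE 0.09, edgeR adjusted p = 6.7e-04) against control and by 0.52 (SE 0.09, adjusted p = 7.8e-04) against knockout. The row of Itgb8, the integrin chain that activates latent TGF-β, averaged 11.1 ± 1.42 CPM in transgenic, 4.08 ± 1.30 CPM in knockout and 6.78 ± 2.69 CPM in control libraries. Itgb8 was called only for transgenic against knockout, by 1.43 (SE 0.29, edgeR adjusted p = 0.002).

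Treg identity rows moved in both directions, with 10 of 14 members tested. The row of Izumo1r, the folate receptor 4 of Tregs, had 236 to 289 CPM in transgenic, 123 to 156 CPM in knockout and 167 to 199 CPM in control libraries, so the groups did not overlap. Izumo1r was higher in transgenic libraries by 0.58 (SE 0.09, edgeR adjusted p = 7.8e-05) against control and by 0.93 (SE 0.09, adjusted p = 3.0e-07) against knockout. Its difference of -0.35 (SE 0.09, adjusted p = 0.048) in knockout against control was not called in 20 of 27 alternatives. No moved exon base of that row lay on Izumo1r. The row of Nrp1, a semaphorin receptor of thymus-derived mouse Tregs, averaged 2.90 ± 1.06 CPM in transgenic, 6.76 ± 2.69 CPM in knockout and 6.66 ± 2.20 CPM in control libraries. Nrp1 was lower in transgenic libraries, with a log2 difference of -1.20 against control (edgeR adjusted p = 0.027) and -1.21 against knockout (adjusted p = 0.025), and 8 of 28 alternatives lost the call against control and 7 of 27 that against knockout.

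Among 16 other inhibitory receptors, 10 were tested. The row of Pecam1, an adhesion receptor with inhibitory tail motifs, averaged 36.2 ± 4.76 CPM in transgenic, 46.9 ± 11.1 CPM in knockout and 56.5 ± 6.14 CPM in control libraries, and fell by 0.64 (SE 0.14, edgeR adjusted p = 0.005) in transgenic against control. The row of Cd244a, the SLAM family receptor 2B4, averaged 25.4 ± 6.16 CPM in transgenic, 44.0 ± 15.8 CPM in knockout and 64.7 ± 9.55 CPM in control libraries, and fell by 1.35 (SE 0.20, edgeR adjusted p = 7.5e-05) in transgenic against control. Its call against knockout, -0.79 (SE 0.21, adjusted p = 0.016), was lost without knockout replicate 2, at -0.59, and its value without knockout replicates 2, 3 and 5 was -0.20. The row of Lag3, a receptor for MHC class II, averaged 27.2 ± 4.54 CPM in transgenic, 19.5 ± 4.99 CPM in knockout and 22.4 ± 3.13 CPM in control libraries, with no call. The Pdcd1 row, for PD-1, had 0 counts in every library, which allows at most 3 counts, or 0.623 to 1.04 CPM, in each. That limit is for the row. Whether it reads Pdcd1 was not examined, since rows at 0 were left out of the comparison of moved exons. The B2m row was at 0 as well, so the Pdcd1 row gives little information on that gene. The row of Tigit, another receptor of Tregs, had 0 to 13 counts and was not tested. No moved exon base of the Cd244a, Lag3 or Tigit row lay on its own gene.

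Among 12 other costimulatory receptors, 2 were tested, and both belong to the SLAM family. The Slamf1 row averaged 368 ± 46.9 CPM in transgenic, 494 ± 67.9 CPM in knockout and 792 ± 40.4 CPM in control libraries, and both altered genotypes lay below every control library. Slamf1 fell by 1.11 (SE 0.10, edgeR adjusted p = 9.9e-08) in transgenic and by 0.68 (SE 0.10, adjusted p = 7.6e-04) in knockout against control. Its difference of transgenic from knockout was -0.43 (SE 0.10, edgeR adjusted p = 0.009), and -0.20 without knockout replicates 2, 3 and 5, where it was not called. The Slamf6 row had 1 to 27 counts. Its call in transgenic against control, -1.48 (SE 0.43, edgeR adjusted p = 0.039), was lost in 12 of 27 alternatives. The Slamf1, Slamf6 and Cd244a rows neighbour each other on the chromosome, and no moved exon base of any of them lay on its own gene.

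**Figure D3:**
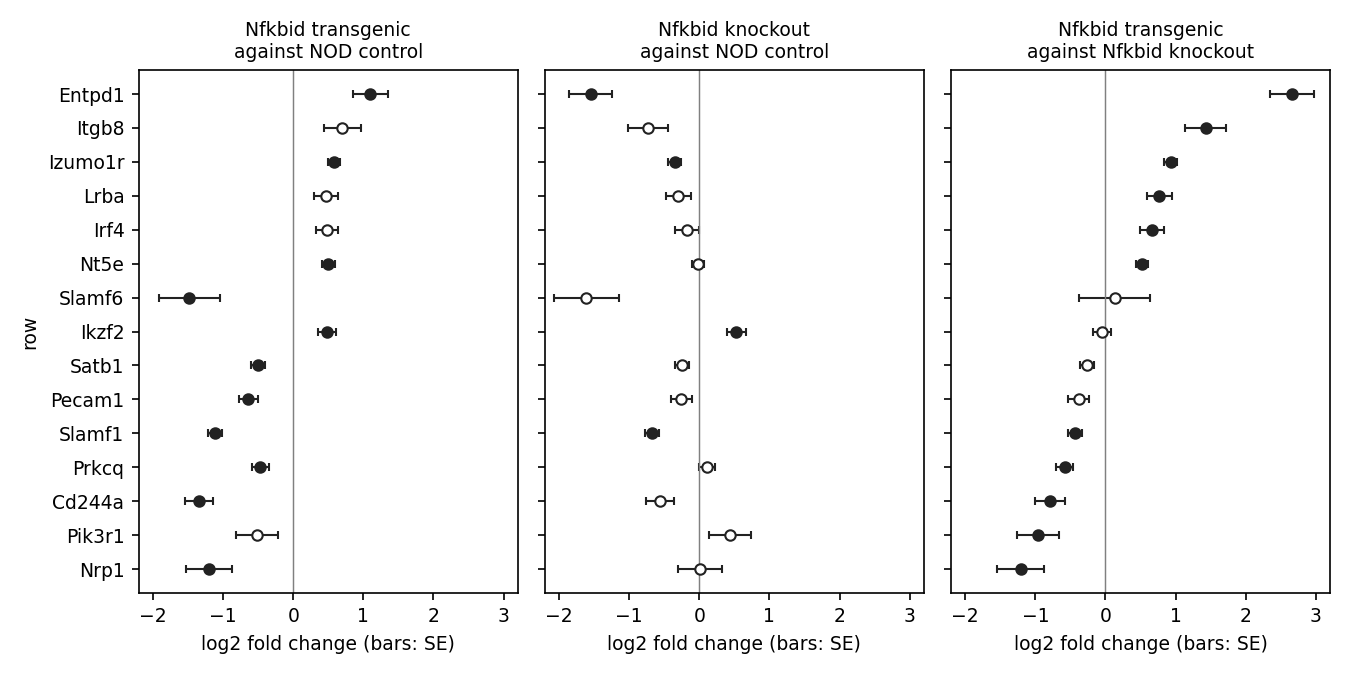
Log2 fold change with its SE for 15 rows of the CTLA-4 lists called in at least 1 comparison, ordered by transgenic against knockout. Filled points passed an adjusted p of 0.05 in edgeR's quasi-likelihood test and open points did not. Entpd1 spans the widest range, from -1.55 in knockout against control to 2.66 in transgenic against knockout. The Entpd1 row had 3 to 11 counts in knockout libraries.

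Rows of other cell types were set beside these values. The 6 rows of NK cell markers summed to 424 to 797 CPM in transgenic, 15.9 to 18.0 CPM in knockout and 8.44 to 16.0 CPM in control libraries. Without the Tyrobp row, whose gene neighbours Nfkbid, the other 5 summed to 0.606 to 3.11 CPM in transgenic, 3.49 to 5.86 CPM in knockout and 1.75 to 6.75 CPM in control libraries. The 10 B cell rows summed to 182 to 279 CPM in transgenic, 174 to 269 CPM in knockout and 221 to 309 CPM in control libraries, with the Cd79b and Blk rows at 0 in all of them. The 5 rows for CD8 T cells reached at most 35.2 CPM in transgenic, 42.2 CPM in knockout and 27.7 CPM in control libraries. Dendritic cell rows summed to 72.5 to 87.0 CPM in transgenic, 83.4 to 93.8 CPM in knockout and 60.6 to 81.0 CPM in control libraries, with Xcr1 and Batf3 at 0. Macrophage and neutrophil rows each summed to at most 28.0 CPM and erythroid rows to at most 0.866 CPM in every library, and 5 of the 6 erythroid rows were at 0 throughout. Besides the Tyrobp row, 3 marker rows were called, and they are named after their values were seen. The Ly6g row, a neutrophil marker, had 3.23 to 7.42 CPM in transgenic, 1.40 to 3.71 CPM in knockout and 0 to 2.53 CPM in control libraries, higher by 2.84 (SE 0.55, edgeR adjusted p = 0.002) in transgenic against control. The Flt3 row, a dendritic cell marker, had 2.97 to 8.64 CPM in transgenic, 5.70 to 19.5 CPM in knockout and 1.97 to 8.24 CPM in control libraries. Its log2 difference was 1.40 (SE 0.35, edgeR adjusted p = 0.041) in knockout against control and -1.35 (SE 0.35, adjusted p = 0.016) in transgenic against knockout. The Ighm row, a B cell marker, had 1.73 to 9.97 CPM in transgenic, 0 to 2.95 CPM in knockout and 2.25 to 4.07 CPM in control libraries, with a call in transgenic against knockout (edgeR adjusted p = 0.010). The part of other cells in the Ctla4 differences was not tested.

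The 10 rows most like the Ctla4 row were taken by Pearson's r of log2 CPM over the 17 libraries, among the 5738 named rows that averaged 3 or more on the log2 CPM scale. They were Ralgds (r = 0.836), Fgf11 (0.833), Cbx5 (0.826), Slc4a1 (0.821), Sbno1 (0.811), Mcm10 (0.81), Kremen2 (0.807), Tmem69 (0.805), Msh3 (0.798) and Slc25a13 (0.796). Ralgds encodes an exchange factor for Ral GTPases, Cbx5 the heterochromatin protein HP1α, Mcm10 a replication initiation factor, Msh3 a mismatch repair protein and Slc25a13 a mitochondrial aspartate and glutamate carrier. No moved exon base of the Fgf11, Kremen2, Sbno1 and Tmem69 rows lay on the named gene, and only 3 bases of the Slc25a13 row did. These rows give little information on the genes they name. The Sbno1 row averaged 300 ± 52.9 CPM in transgenic, 167 ± 53.1 CPM in knockout and 146 ± 13.4 CPM in control libraries. The Mcm10 row averaged 40.5 ± 10.6 CPM in transgenic, 14.7 ± 10.4 CPM in knockout and 18.5 ± 4.38 CPM in control libraries. In the Slc4a1, Sbno1 and Tmem69 rows the control mean was the lowest of the 3, unlike in the Ctla4 row. All 10 were highest on average in transgenic libraries, which the choice by likeness favours.

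The likeness rested in part on transgenic replicate 1 and on the group means. That library was the highest of the 17 for the Ctla4 row and for each of the 10 rows except Fgf11 and Msh3. Without it, 5 of the 10 rows remained among the 10 most like. By Spearman's rho 5 remained, and after each group's mean was removed 1 remained. The Gm38137 row ranked 74 of 9985 by the same measure. These are descriptions of 17 libraries that share genotypes and depth.

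**Figure D4:**
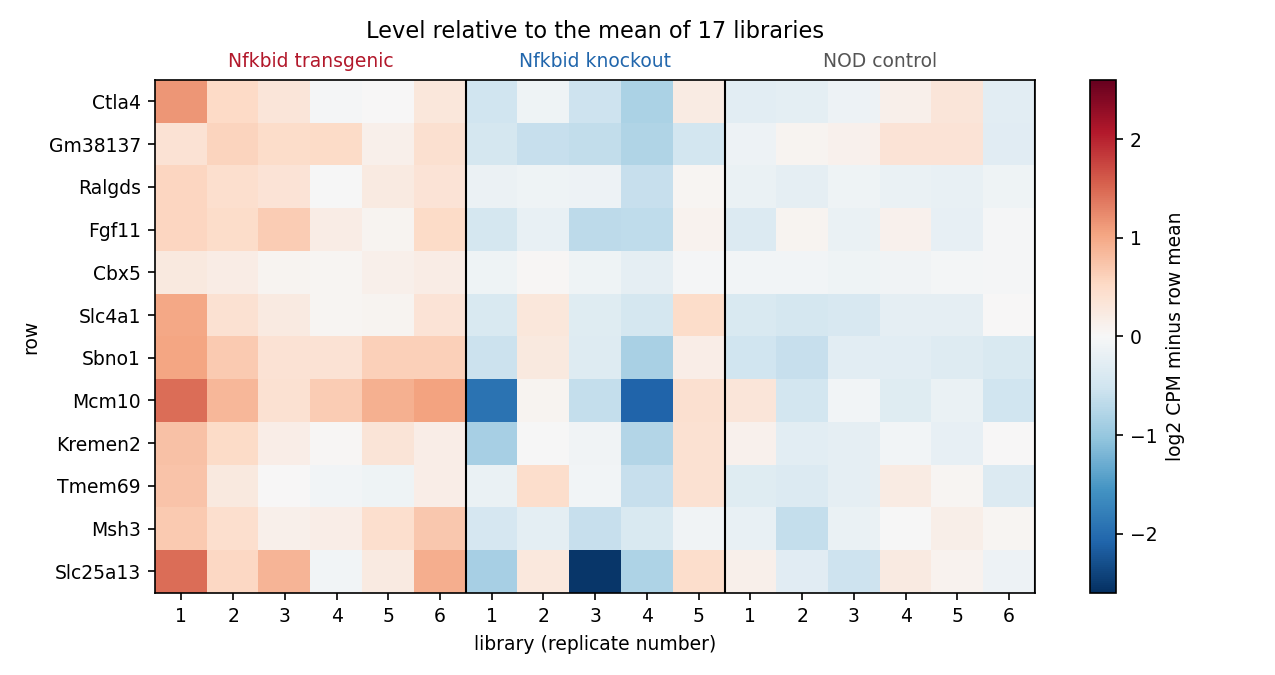
Log2 CPM minus the row mean over 17 libraries for the Ctla4 row, the Gm38137 row and the 10 rows most like Ctla4, with libraries in columns by group and replicate number. Transgenic replicate 1 is 1.15 above the mean for the Ctla4 row and 0.38 above it for the Gm38137 row, and knockout replicate 4 is 0.82 and 0.77 below it (-0.82 and -0.77).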

How the data were processed

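Poly(A) RNA of sorted splenic Foxp3-GFP+ Tregs was made into libraries with the KAPA mRNA HyperPrep kit, per the labels' protocols. Gene-level expected counts of 17 libraries were deposited by the authors. Per the submitters' processing notes, Bowtie2, edgeR, GRCm38 and Ensembl 102 were used. No source used here states whether molecular identifiers removed duplicates, so intervals and floors reflect counting error alone.

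Expected counts were rounded (5.87% of the values were not whole). Of 47643 rows, 47224 matched a symbol. edgeR 4.0.16 in R 4.3.3 (TMM, filterByExpr, quasi-likelihood F test, all libraries in 1 fit) tested 9986 rows with Benjamini-Hochberg adjustment at 0.05, after a check on simulated data. The biological coefficient of variation was 0.235 for the Ctla4 row and 0.241 in common. Log2 CPM used a prior count of 2. The labels do not tie libraries to separate animals, so each p-value reflects only the spread among these libraries, which may be technical. No 2 replicates agreed within sampling noise.

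Ctla4 and the gene lists were chosen with earlier results of these data known. Named rows are list members called in at least 1 comparison, 8 fixed partners, the 10 rows most like Ctla4 and neighbours within 500 kb. Gm38137 was added later, and 1 row that the rule names is not reported here. Exon and gene coordinates and the printed sequences came from GENCODE gene models on GRCm38. The alternatives were RLE, upper-quartile and totals-only scaling, other filters, voom in limma 3.58.1, DESeq2 1.42.0, a block by replicate number, fits restricted to 2 groups, leaving out each library and, chosen after seeing the data, leaving out knockout replicates 2, 3 and 5 and fitting only the transgenic and control libraries of 1 run of header numbers.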

Additional observations from a re-analysis of the deposited data

Results flagged for a closer look

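In 105 groups of values examined, 7 had a library that a wide gap parted from its group. The rule's nominal rate of about 1 in 20 for independent groups does not apply here, and the flags are a description. The Ctla4 row was chosen with its values known. The Slc4a1 and Tmem69 rows were chosen for their likeness to it, which favours a flag in the same library. Of the 7, 5 came from transgenic replicate 1, so they are not independent. The Ctla4 row stood apart in transgenic replicate 1, at 169 CPM. The same library stood apart for the Ikzf2 row at 265 CPM, the Slc4a1 row at 121 CPM, the Tmem69 row at 95.0 CPM and its TMM factor of 0.864. The Pik3r1 row stood apart in knockout replicate 5, at 19.6 CPM. Control replicate 1 stood apart for its total of 4726615 counts.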

How the results depend on the processing

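The log2 differences of the Ctla4 row and the Gm38137 row kept their direction in all alternatives tried (28 for transgenic against control and 27 for the others) and moved by less than 1 SD between libraries, and no result reversed. With library totals only, the median of all rows in knockout against control was -0.15, so differences there are relative to that shift.

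Counts of called rows were less stable. Transgenic against control had 522 rows higher and 217 lower, against 785 and 441 when those groups were fitted alone, and 879 and 469 without knockout replicates 2, 3 and 5, an alternative chosen after seeing the data. Another such alternative, the transgenic and control libraries of 1 run of header numbers (6 and 2 libraries), gave 207 higher, 45 lower and 3 list members (4.41% of members tested against 2.5% of all rows). Knockout against control had 88 higher and 101 lower. The higher count was 49 with totals only, 223 with no filter, 34 in the fit of those groups, 10 without the 3 knockout libraries, 50 with voom and 340 with DESeq2. The lower count was 348 with no filter, 42 in the fit of those groups, 33 without the 3 knockout libraries and 265 with DESeq2. Transgenic against knockout had 633 higher and 432 lower, and the lower count was 203 in the fit of those groups and 208 without the 3 knockout libraries.

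Leaving out 1 library gave 389 to 596 higher and 140 to 280 lower for transgenic against control. It also gave 10 to 14 list members there (15.2 to 20% of members tested against 5.34 to 8.59% of all rows). It gave 29 to 592 higher, 55 to 532 lower and 2 to 7 members for knockout against control (2.86 to 10.4% against 0.863 to 11.1% of all rows), the highest without knockout replicate 4. It gave 473 to 815 higher, 262 to 826 lower and 9 to 19 members for transgenic against knockout (13.6 to 27.9% against 7.44 to 16.5% of all rows), with 826 lower without transgenic replicate 1. List members called in knockout against control numbered 4 (6.06% against 1.89% of all rows). There was 1 in the fit of those groups (1.54% against 0.799%) and 2 with voom (3.03% against 1.35%). With members in place only, the counts were 7 for transgenic against control (17.1% of 41 members against 7.4% of all rows) and 1 for knockout against control (2.44% against 1.89%).

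Replicate numbers did not pair the libraries: over 16 same-numbered pairs r was -0.52 to 0.36, with 1 over 0.1, and 2 of 17 libraries correlated best with their own number. With a replicate block, knockout against control had 23 rows higher, 44 lower and 1 list member (1.52% of members tested against 0.671% of all rows), and transgenic against knockout 214 lower.

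The rows most like Ctla4 shared 5 of 10 by Spearman's rho, 1 with group means removed and 5 without transgenic replicate 1. The best move was 19 kb within 2 Mb and 25 kb within 10 Mb, against 28 kb. The omission of transgenic replicate 1 from the likeness, the 2 and 10 Mb windows and the count of members in place were also chosen after seeing the data. The cause of these changes was not tested. Rows under about 3 counts, such as Icos and Cd86, were below what this depth can compare. The moved exons of the Icos row lay on Icos by 0 bases and those of the Cd86 row on Cd86 by 9. Their low counts therefore give little information on those genes.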
